A study of Mus musculus with 4 samples.

Results

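The 8 transcription factor genes described here, Hnf4a, Foxa1, Foxa2, Foxa3, Cebpa, Prox1, Nr5a2 and Onecut2, belong to the network that gives hepatocytes their identity. They were taken by symbol from the 24138 genes of the deposited expression table, and all 8 were found, each on a row of its own. The samples are whole livers of C57BL/6J males, 18 weeks old, 4 in all, whose RNA was sequenced in bulk after poly(A) enrichment. Every animal had the same treatment: the FAT-MASH diet, a model of MASH (steatohepatitis of metabolic origin), and resolvin D1 (RvD1), which is an omega-3 fatty acid derivative that helps to end inflammation. No mouse on the diet alone or on a control diet was analysed here, so the values give the level of each factor in treated animals and its spread between livers, and no effect of the diet or of RvD1 can be read from them. The livers are numbered 1 to 4 as in the labels.

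Hepatocyte identity rests on a small set of DNA-binding proteins that activate each other's genes and share binding regions. FOXA proteins are pioneer factors that bind nucleosomal DNA and open liver enhancers, HNF4A is an orphan nuclear receptor that drives the bulk of hepatocyte-specific transcription, and C/EBPα is a leucine zipper factor of metabolic and secretory genes. NR5A2 (LRH-1) is a nuclear receptor of bile acid and cholesterol genes, PROX1 is a homeobox corepressor that binds HNF4A and NR5A2, and ONECUT2 is a cut-homeodomain factor that acts with ONECUT1 (HNF6) in the separation of hepatocytes from bile duct cells. In chronic liver disease the activity of this network, HNF4A in particular, is known to be able to decline.

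The values were taken as FPKM, fragments scaled by transcript length and by the mapped fragments of the library, so that levels of different genes can be compared. The depth was estimated from the lowest values at between 18.8 and 20.1 M fragments per liver (M, mega), and the summed FPKM ran from 516816 to 570681, highest in liver 4. A gene with a mean of at least 1 FPKM was called expressed, and the spread of a gene is given as an SD on the scale of log2(FPKM + 1), which understates differences of low genes. The labelled tissue was checked against 10 hepatocyte markers. Of these, 8 were expressed, with means from 319.6 FPKM for Asgr1 to 12970 FPKM for Apoa1, while Alb and Trf, which every liver makes in quantity, were listed at 0 in all 4 livers. Serpina1b was listed at 0 in livers 3 and 4 and at 4557 and 4143 FPKM in livers 1 and 2, so a 0 in this table can be a failed estimate.

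All 8 factors were expressed, where 43.7% of all rows of the table were. Cebpa had the highest mean, 194 ± 67.8 FPKM, followed by Hnf4a at 118 ± 27.2 FPKM (each SD, n = 4). The other 6 genes lay roughly an order of magnitude lower. Foxa2 and Foxa3 had 16.5 ± 4.37 and 16.5 ± 5.85 FPKM, Nr5a2 9.56 ± 0.748 FPKM, Prox1 9.31 ± 1.59 FPKM, Foxa1 7.25 ± 2.01 FPKM and Onecut2 6.08 ± 0.379 FPKM (each SD, n = 4). The median over all 10541 expressed genes was 7.83 FPKM, so Foxa1 and Onecut2 stood just below the middle of the expressed genes, at the 47.8th and 43.0th percentiles, and Cebpa and Hnf4a at the 95.8th and 93.3rd. In a bulk sample, fewer hepatocytes and less RNA per hepatocyte cannot be told apart.

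**Figure D1:**
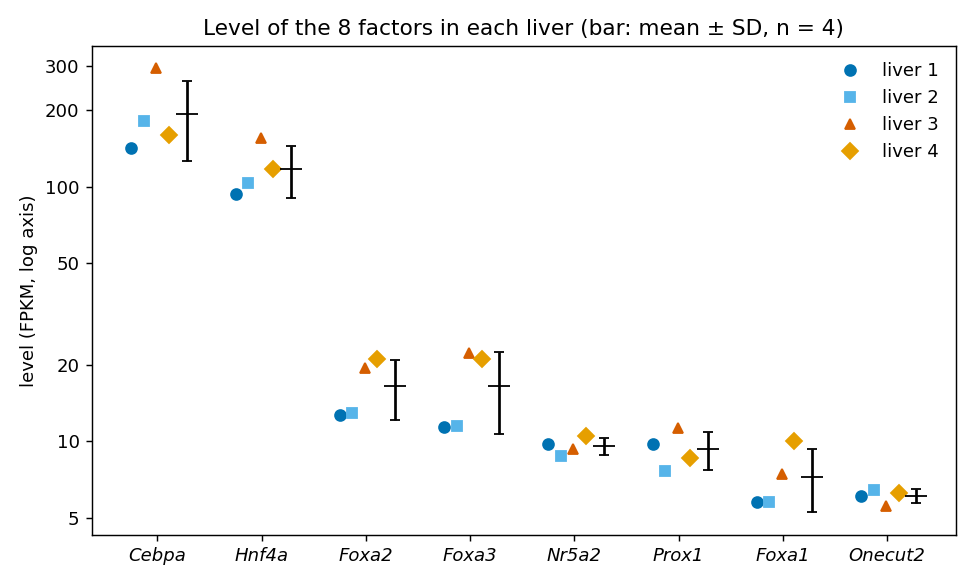
Level of each of the 8 factors in FPKM (log axis) in livers 1 to 4 (symbols), with the mean and SD over the 4 livers as a bar to the right. Cebpa and Hnf4a lie between 93.9 and 293 FPKM and the other 6 genes between 5.56 and 22.1 FPKM.

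The order of the genes was read within each liver, since 2 genes of a library share its scale. Of the 7 pairs of neighbours in the order of means, 3 stood the same way round in all 4 livers: Cebpa above Hnf4a (ratio 1.36 to 1.88), Hnf4a above Foxa2 (5.61 to 8.08) and Foxa3 above Nr5a2 (1.17 to 2.37). Foxa2 exceeded Foxa3 in 3 of 4 livers, Prox1 exceeded Foxa1 in 3, and Nr5a2 exceeded Prox1 and Foxa1 exceeded Onecut2 in 2 each, so these neighbours did not differ beyond their spread. The ranges over the livers overlapped for 5 of the 7 pairs, Cebpa and Hnf4a included, and were separate for Hnf4a over Foxa2 and Foxa3 over Nr5a2. An exact two-sided sign-flip permutation test over 4 livers cannot give less than p = 0.125, the value of the 3 concordant pairs, so no pair could pass a threshold of 0.05. At the step between Hnf4a and Foxa2 the lowest liver for Hnf4a had 93.9 FPKM and the highest liver for Foxa2 had 21.02 FPKM.

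Hnf4a (XLOC_011934, chr2:163547188-163572907 in mm10) had, in livers 1 to 4, 93.9, 104, 156 and 118 FPKM. Liver 3 was the highest and liver 1 the lowest, a 1.66-fold range. The gene has a pair of promoters. P1 is the promoter of adult hepatocytes, and P2, which lies upstream, serves the isoforms of fetal liver and pancreas. The deposited span begins 33 bases downstream of the RefSeq start site of P1 and 40331 bases downstream of that of P2, so the row covers the gene from P1 on, and a level of P2 transcripts was not measured apart from it. Both promoter windows of RefSeq (GRCm38.p6, 250 bases before to 50 after the start site, on the gene's strand) are shown because they separate these isoforms; capitals mark a match to a motif described below.
Hnf4a P1, chr2:163546905-163547204, plus strand: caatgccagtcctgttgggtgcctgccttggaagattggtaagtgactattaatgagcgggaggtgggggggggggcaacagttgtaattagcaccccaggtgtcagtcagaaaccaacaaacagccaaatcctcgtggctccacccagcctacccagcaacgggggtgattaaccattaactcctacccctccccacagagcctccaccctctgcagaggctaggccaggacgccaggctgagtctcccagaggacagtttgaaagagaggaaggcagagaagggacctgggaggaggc
Hnf4a P2, chr2:163506607-163506906, plus strand: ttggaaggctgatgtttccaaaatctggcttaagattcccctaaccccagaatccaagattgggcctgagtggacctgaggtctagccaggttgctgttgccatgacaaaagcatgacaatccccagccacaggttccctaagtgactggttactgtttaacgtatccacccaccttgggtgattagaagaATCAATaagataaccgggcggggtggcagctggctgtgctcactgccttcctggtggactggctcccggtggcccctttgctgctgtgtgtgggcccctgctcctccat

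The letters of the P2 window hold the Onecut motif ATCAAT 59 bases before the start site, and those of the P1 window hold none of the motifs searched. Hnf4g, the paralogue of gut and kidney, was at 0.135, 0.0677, 0.115 and 0.155 FPKM, so Hnf4a supplied between 99.86% and 99.93% of the summed level of the pair. Nr2f2 (COUP-TFII), an orphan receptor that can bind the same direct repeats, was steady at 12.2 ± 0.865 FPKM (SD, n = 4), and the ratio of Hnf4a to Nr2f2 ran from 7.33 in liver 1 to 14.2 in liver 3. Rxra, the partner of many liver nuclear receptors, had 101 ± 10.98 FPKM (SD, n = 4), close to the level of Hnf4a.

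Cebpa (XLOC_018649, chr7:35119293-35121931), an intronless gene, had 142, 181, 293 and 160 FPKM in liver order. Liver 3 exceeded the next liver 1.62-fold and liver 1 was the lowest, a 2.06-fold range, the widest of the 8 factors. The annotated antisense gene Gm45091 overlaps its 5′ end, and the strand setting of the quantification is not given in the sources used here, so reads of the pair may not have been separated. Among the other C/EBP genes, Cebpb, which responds to cytokines and injury, had 132, 273, 213 and 123 FPKM, with a mean of 185 ± 71.3 FPKM (SD, n = 4) close to that of Cebpa. Its highest liver was liver 2, not liver 3, and the ratio of Cebpa to Cebpb was 1.08, 0.665, 1.37 and 1.30 in livers 1 to 4, so liver 2 was where Cebpb exceeded Cebpa. The annotated Tmem189 overlaps Cebpb on the opposite strand. Cebpd, an acute phase member, was also highest in liver 2, at 8.35 FPKM against 4.88 to 6.55 FPKM in the other livers. Cebpg had 13.5 ± 2.67 FPKM and Cebpe, a granulocyte factor, 4.40 ± 0.321 FPKM (each SD, n = 4).

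The Foxa genes formed the next tier. Foxa3 (XLOC_019490, chr7:19013283-19023539), which helps to maintain glucose output in fasting, had 11.4, 11.5, 22.1 and 20.9 FPKM in liver order. Foxa2 (XLOC_012830, chr2:148042877-148046969), a regulator of lipid and bile acid metabolism, had 12.6, 12.85, 19.5 and 21.02 FPKM. Foxa1 (XLOC_004841, chr12:57540632-57546121), which acts redundantly with Foxa2 in liver specification, had 5.78, 5.75, 7.44 and 10.03 FPKM. All 3 genes were lower in livers 1 and 2, where their values were nearly equal, than in livers 3 and 4. The ranges were 1.95-fold for Foxa3, 1.74-fold for Foxa1 and 1.66-fold for Foxa2.

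The summed Foxa level was 29.8, 30.1, 49.02 and 51.99 FPKM in liver order. Its range was 1.75-fold, but its composition varied little. Foxa2 made up 41.3 ± 1.49% of the sum, Foxa3 40.4 ± 3.29% and Foxa1 18.2 ± 2.05% (each SD, n = 4). The exception was liver 3, where Foxa3 reached 45.1% and Foxa1 was 15.2%. The shares do not depend on the scale of a library. The RefSeq windows at the main start sites of the 3 genes are shown because these are the genes whose levels varied alike; capitals mark a motif match.
Foxa1, chr12:57546062-57546361, minus strand: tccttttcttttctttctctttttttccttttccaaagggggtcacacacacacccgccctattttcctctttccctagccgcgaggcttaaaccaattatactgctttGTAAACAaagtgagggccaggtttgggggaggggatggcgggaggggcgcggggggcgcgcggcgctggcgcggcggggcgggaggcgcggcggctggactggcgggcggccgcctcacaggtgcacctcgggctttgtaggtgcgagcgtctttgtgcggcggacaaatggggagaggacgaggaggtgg
Foxa2, chr2:148046920-148047219, minus strand: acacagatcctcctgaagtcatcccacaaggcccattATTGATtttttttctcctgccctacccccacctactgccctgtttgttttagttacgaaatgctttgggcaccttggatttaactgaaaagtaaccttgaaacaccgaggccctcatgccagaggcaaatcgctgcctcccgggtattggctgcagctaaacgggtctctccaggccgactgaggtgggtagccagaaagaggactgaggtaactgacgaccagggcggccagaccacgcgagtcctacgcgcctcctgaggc
Foxa3, chr7:19023490-19023789, minus strand: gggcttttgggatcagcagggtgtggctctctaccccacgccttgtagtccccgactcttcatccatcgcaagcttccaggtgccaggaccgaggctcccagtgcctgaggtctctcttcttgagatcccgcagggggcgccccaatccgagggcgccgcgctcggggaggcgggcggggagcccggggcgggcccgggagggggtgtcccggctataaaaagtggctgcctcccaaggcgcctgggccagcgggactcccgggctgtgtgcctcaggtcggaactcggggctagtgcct

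Motifs were sought on both strands of every RefSeq window. They were TGTTTAC and TGTTTGC for FOXA, CAAAGTCCA for HNF4A, TTGCGCAA, TTGCGTAA and TTGCACAA for C/EBP, CAAGGTCA for NR5A2 and ATCGAT and ATCAAT for Onecut. Windows were found for 7 of the 8 factors, all but Onecut2, and these 7 genes had 12 windows in all. The Foxa1 window holds TGTTTAC on the reverse strand, beginning 141 bases before the start site, a motif found in 3.65% of 32851 windows. The Foxa2 window holds ATCAAT on the reverse strand, beginning 213 bases before the start site, as do 7.54% of all windows. The Foxa3 and Cebpa windows hold none of these letters. Of the motifs without a match, CAAAGTCCA was in 0.475% of all windows, TTGCGCAA in 0.183%, TTGCGTAA in 0.167%, TTGCACAA in 1.01%, CAAGGTCA in 1.56% and ATCGAT in 0.925%. A window of Prox1 within the gene holds TGTTTGC, found in 5.07% of windows. A match is a description of the letters and not a bound site.

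**Figure D2:**
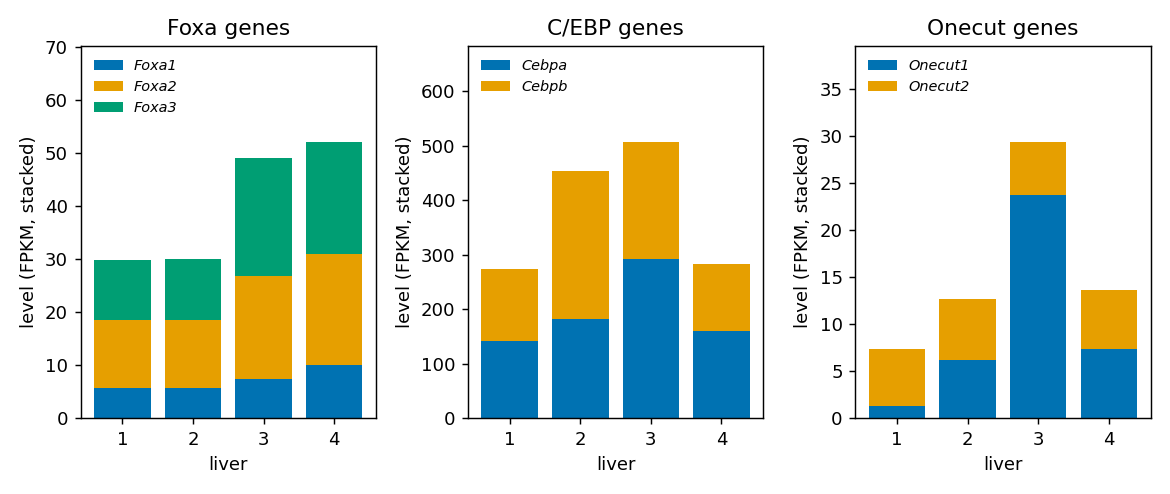
Levels of the Foxa genes, of Cebpa and Cebpb, and of Onecut1 and Onecut2 in FPKM, stacked for each of livers 1 to 4 on axes that begin at 0. The Foxa sum is higher in livers 3 and 4 with nearly constant proportions, Cebpb is highest in liver 2, and Onecut1 ranges from 1.25 to 23.7 FPKM while Onecut2 stays between 5.56 and 6.44 FPKM.

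Nr5a2 (XLOC_001072, chr1:136843584-136960448) had 9.73, 8.71, 9.32 and 10.5 FPKM in liver order. The livers lay close together, within 1.20-fold, and its SD of log2(FPKM + 1), 0.10, was at percentile 20.01 of expressed genes. The gene is also strong in exocrine pancreas, and of 5 pancreatic markers Ins2, Gcg, Cpa1 and Pnlip were listed at 0 in all 4 livers and Cela2a was at or below 0.807 FPKM. Nr0b2 (SHP), the corepressor that bile acids induce and that restrains NR5A2 and HNF4A, was far less steady. It was at 61.1, 34.3, 36.1 and 15.7 FPKM, a 3.89-fold range with liver 1 highest and liver 4 lowest.

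Prox1 (XLOC_001300, chr1:190121777-190170680) had 9.78, 7.60, 11.3 and 8.57 FPKM in liver order, highest in liver 3 and lowest in liver 2, within 1.48-fold. The antisense genes Gm28172 and Prox1os overlap its 5′ part. Lymphatic endothelium also expresses Prox1. Of the 5 lymphatic markers listed, Lyve1, Pdpn, Flt4 and Reln had values, 3 of them above 1 FPKM on average, and their summed level was 14.8, 17.1, 11.7 and 14.4 FPKM in livers 1 to 4, highest where Prox1 was lowest and lowest where Prox1 was highest. Lyve1, Flt4 and Reln are also made by sinusoidal endothelial or stellate cells, while Pdpn had at most 1.02 FPKM. The part of lymphatic vessels in the Prox1 level was not tested.

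Onecut2 (XLOC_009914, on chromosome 18 from 64340364 to 64398488) had 6.07, 6.44, 5.56 and 6.25 FPKM in liver order, the narrowest range of the 8 factors at 1.16-fold. Its SD of 0.08 lay at the 10.4th percentile of expressed genes. Its paralogue Onecut1 behaved otherwise. Onecut1 (XLOC_022068, chr9:74861921-74889647) had 1.25, 6.20, 23.7 and 7.33 FPKM, a 19.03-fold range with liver 1 lowest and liver 3 highest, and its SD of 1.42 was at the 99.8th percentile. The ratio of Onecut1 to Onecut2 was 0.206, 0.962, 4.27 and 1.17, so the same pair had Onecut2 as its main transcript in liver 1 and Onecut1 in liver 3. At the estimated depth the lowest Onecut1 value corresponds to about 94 fragments, with a counting error near 10.3%. Without liver 1 the range was 3.83-fold, and without liver 3 it was 5.87-fold. A lincRNA on the same strand, Gm20649, overlaps the annotated Onecut1. Onecut3 was listed at 0 in all 4 livers, as was Nr5a1, the steroidogenic relative of Nr5a2, and Prox2 lay between 0.356 and 0.758 FPKM. Onecut factors also mark bile duct cells. The summed level of 6 cholangiocyte markers was 233, 205, 192 and 213 FPKM in livers 1 to 4, most of it Spp1, and Krt19 lay between 4.52 and 5.09 FPKM. Liver 3 was the lowest for the sum and for Krt19, while Krt7 and Sox9 were highest there, at 3.99 and 5.22 FPKM. The part of bile duct cells in the Onecut levels was not tested.

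The 8 factors differed in how much they varied between livers. The highest liver was at least 1.5 times the lowest for 5 of 8 factors (Hnf4a, Foxa1, Foxa2, Foxa3 and Cebpa), where this held for 28.4% of expressed genes. Their SDs, 0.31, 0.34, 0.36, 0.50 and 0.45 in that order, stood between the 91.6th and 98.4th percentiles of expressed genes. Prox1, at 0.22 and a 1.48-fold range, lay just under this threshold, at the 74.0th percentile. The median SD over all 4 livers was 0.32 for the 8 factors and 0.16 for all expressed genes. That of the 8 factors was 0.17 without liver 3. The count was 3 of 8 without liver 3 (16.3% of expressed genes), where Hnf4a and Cebpa ranged only 1.26-fold and 1.27-fold, and 4 of 8 without liver 4 (19.6%), where Foxa1 ranged 1.29-fold. Foxa2 and Foxa3 ranged at least 1.54-fold and 1.84-fold whichever liver was left out. Among the values of the 8 factors, the one that rests on the fewest fragments, Foxa1 in liver 2, corresponds to about 333 fragments at the estimated depth, a counting error of 5.48% that does not include library preparation. A test for an outlying liver, Dixon's ratio, passed its 95% critical value in 0 of 8 factors, and in 5.46% of expressed genes.

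**Figure D3:**
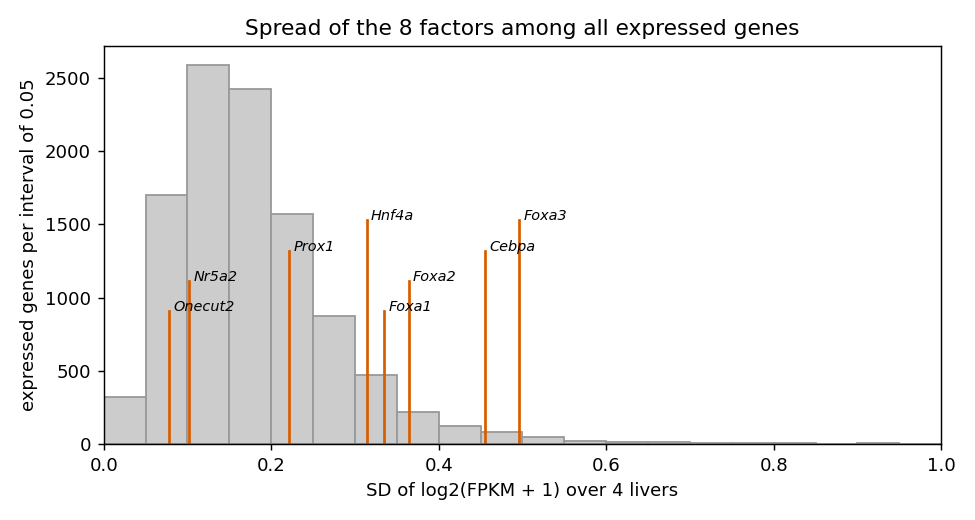
Number of expressed genes by the SD of log2(FPKM + 1) between livers (grey bars, intervals of 0.05), with the SD of each of the 8 factors as a labelled line whose height carries no value. Onecut2 and Nr5a2 lie at 0.08 and 0.10, below the median of 0.16, and the Foxa genes, Hnf4a and Cebpa at 0.31 or above.

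Relative to their means over the 4 livers, 2, 1, 6 and 6 of the 8 factors were above their mean in livers 1 to 4, where 47.2%, 45.1%, 47.0% and 60.8% of all expressed genes were. The median deviation of the 8 was -0.28, -0.20, 0.26 and 0.08 on the log2 scale, and that of all expressed genes was between -0.02 and 0.04. With every library scaled to the same sum, 3, 1, 7 and 4 of the 8 were above their mean and the median in liver 4 was -0.01, so the direction of the set in liver 4 depends on the scaling, and its directions in livers 1, 2 and 3 were as before. With scaling by the median ratio the median was 0.04 in liver 4. As deposited, liver 3 held the highest value of 4 factors (Hnf4a, Foxa3, Cebpa and Prox1), liver 4 of 3 (Foxa1, Foxa2 and Nr5a2), liver 2 of Onecut2 and liver 1 of none. Of all expressed genes, 17.9%, 22.0%, 26.8% and 33.3% had their highest value in livers 1 to 4, so the count in liver 4 as deposited was near that background. With the libraries scaled to the same sum, Foxa2 was highest in liver 3 (0.30 against 0.27 in liver 4). Nr5a2 was then highest in liver 1 (0.05 against 0.03), which left only Foxa1 highest in liver 4. The 2 livers with high Foxa levels differed in the rest of the network: liver 3 had Cebpa at 0.65 and Hnf4a at 0.43 above their means, while in liver 4 Cebpa was at -0.22 and Hnf4a at 0.03. This small value of Hnf4a was -0.07 and -0.02 under the scalings by sum and by median ratio. Each Foxa gene kept its sign in all 4 livers under these scalings. The median deviation of the 8 expressed hepatocyte markers was -0.07, -0.06, -0.14 and 0.12 in livers 1 to 4, and -0.10, -0.07, -0.07 and 0.13 for the 7 other than Serpina1b, which is listed at 0 in livers 3 and 4. These medians had the sign of the factors' median in livers 1, 2 and 4 and the opposite sign in liver 3. The summed level of 5 endothelial genes was 39.2, 49.6, 43.9 and 49.5 FPKM, most of it Clec4g (26.7 to 33.6 FPKM). The sum of 7 myeloid genes was 146, 194, 152 and 198 FPKM, most of it Lyz2 (94.9 to 135 FPKM). Both sums were lowest in liver 1. By the median deviation of the expressed genes, the endothelial list was at -0.17, 0.26, -0.04 and 0.07 and the myeloid list at -0.19, 0.19, -0.23 and 0.07, the latter lowest in liver 3, as were Ptprc, S100a8 and Cd68, while Spi1 was highest there. The part of cell composition in the factor levels was not tested.

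**Figure D4:**
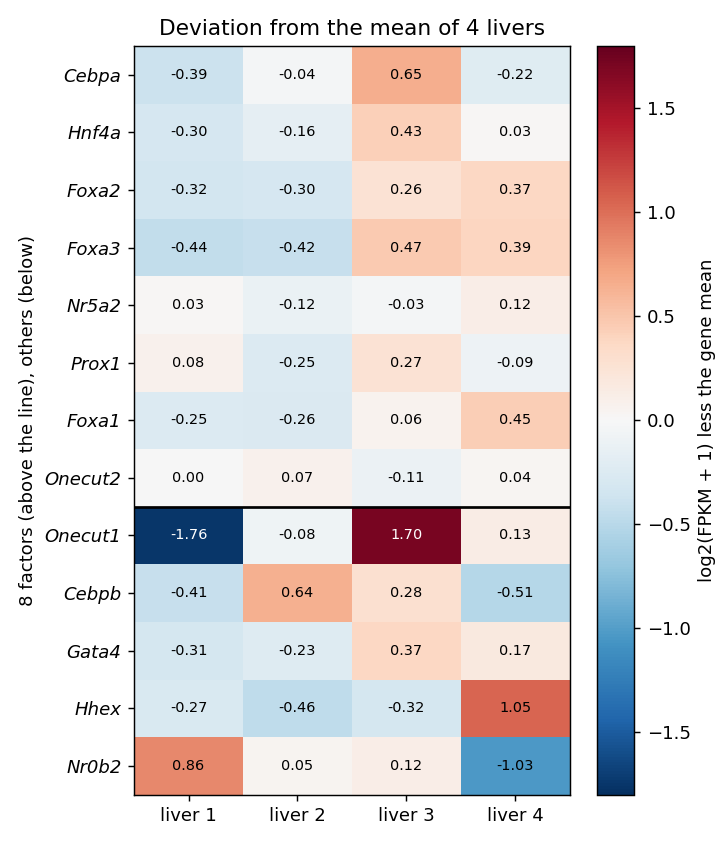
Deviation of log2(FPKM + 1) from the gene's mean over the 4 livers for the 8 factors (above the line) and 5 other liver factors (below it), with the value in each cell. Foxa1, Foxa2 and Foxa3 are negative in livers 1 and 2 and positive in livers 3 and 4, Cebpa and Hnf4a are highest in liver 3, and Onecut1 runs from -1.76 to 1.70.

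The base composition of the transcripts moved with part of this pattern. Over 10183 expressed genes with a GENCODE transcript, the median deviation in liver 3 climbed from -0.14 in the lowest of 10 equal groups by GC content to 0.13 in the highest group, whereas in liver 2 it went from 0.08 to -0.07, in liver 4 from 0.07 to -0.02, and in liver 1 from -0.01 to -0.04. The 5 factors of wide range had transcripts with between 53.7% and 62.6% GC, highest for Cebpa, and Prox1, Nr5a2 and Onecut2 between 42.6% and 45.3%. With the median of the gene's own GC group subtracted, Cebpa in liver 3 was at 0.52 in place of 0.65, Hnf4a at 0.35 in place of 0.43, Foxa3 at 0.39 in place of 0.47 and Foxa1 at -0.02 in place of 0.06. Prox1 was farther from its mean in liver 3 after the subtraction, at 0.36 in place of 0.27, its SD going from 0.22 to 0.28 while that of Hnf4a went from 0.31 to 0.26, and Nr5a2 was at 0.07 in place of -0.03. In liver 4 the subtraction left Foxa1, Foxa2 and Foxa3 at 0.42, 0.37 and 0.36. Onecut1, with 49.7% GC, stood at 1.73 in liver 3 and -1.76 in liver 1 after it. The median SD of the 8 factors became 0.29. This adjustment was chosen after seeing the data, and the part of base composition in the levels was not tested beyond it.

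**Figure D5:**
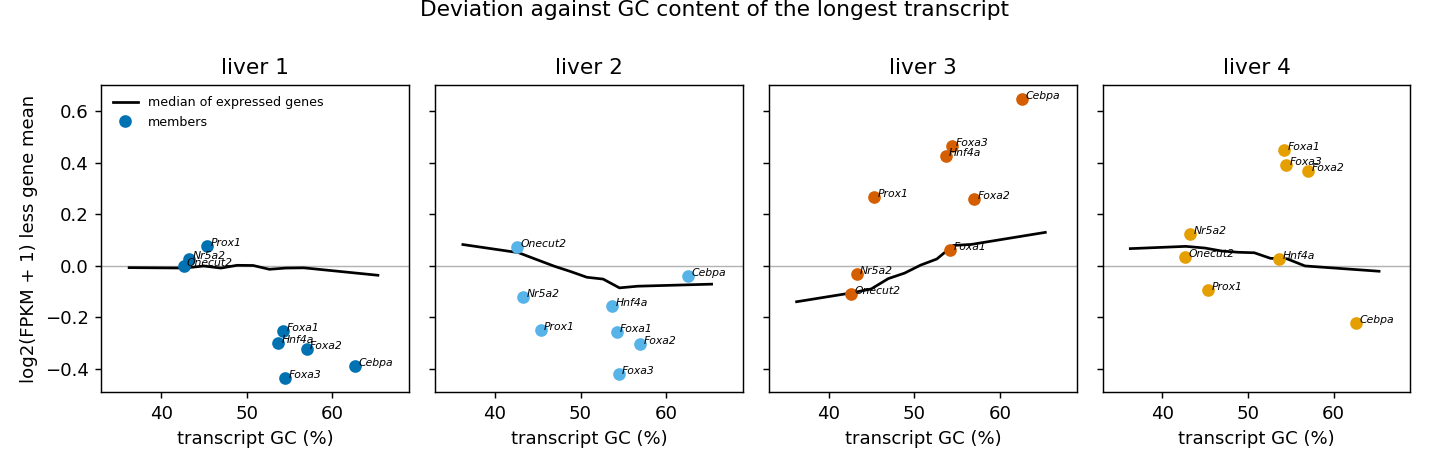
Deviation of each of the 8 factors (points) from its mean over the 4 livers, against the GC content of its longest GENCODE transcript in percent, in panels for livers 1 to 4. The line joins the median deviation of expressed genes in 10 groups of GC content and climbs from -0.14 to 0.13 in liver 3, where Cebpa, Foxa3, Prox1 and Hnf4a exceed the median of their group by 0.52, 0.39, 0.36 and 0.35.

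Other factors of the hepatocyte network were measured as a list of 20 genes, of which 19 were expressed, with a median SD of 0.21. Gata4, a partner of FOXA in early liver, was at 4.80, 5.13, 8.29 and 7.10 FPKM in livers 1 to 4, lower in livers 1 and 2 as the Foxa genes were. Hhex, a homeobox gene of liver bud growth, had 33.3, 29.02, 32.2 and 84.7 FPKM, with liver 4 apart from the rest. Nr2f2, with an SD of 0.10 at the 17.7th percentile of expressed genes, was among the steadier genes of the list. Of the 19, 6 ranged at least 1.5-fold (31.6%), near the 28.4% of all expressed genes. The median deviation of the list was -0.11, -0.13, 0.11 and 0.07 in livers 1 to 4, the same signs as the 8 factors had in the values as deposited, with smaller sizes.

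Coregulators had a median SD of 0.14 over 12 expressed genes, and 3 of the 12 ranged at least 1.5-fold (25%, against 28.4% of all expressed genes). Ncor1, a corepressor of nuclear receptors, lay between 10.5 and 10.9998 FPKM. Ppargc1a, a coactivator of HNF4A in fasting, had 1.60 to 2.75 FPKM. Of 10 factors of other endodermal or stem cell fates, 0 were expressed, where 43.7% of all rows of the table were. Pdx1, Cdx1, Cdx2, Neurog3, Ptf1a and Sox2 were listed at 0 in all 4 livers. Foxf1 had a mean of 0.98 FPKM, just under the threshold, with 0.576, 1.22, 0.763 and 1.36 FPKM in livers 1 to 4. Sox17 lay between 0.481 and 0.809 FPKM. Of 6 mesenchymal transition factors 4 were expressed, Snai1, Snai2, Zeb1 and Zeb2, with means from 1.42 to 3.68 FPKM, and all 4 had their highest value in liver 2, where 22.0% of all expressed genes had theirs. Of 5 fetal hepatocyte markers 3 were expressed, and all 3 ranged at least 1.5-fold, where 28.4% of all expressed genes did. The lowest values of Afp, H19 and Gpc3 correspond to about 35, 57 and 64 fragments at the estimated depth. Their counting errors of 16.9%, 13.2% and 12.5% are part of these ranges. Gpc3 had 2.30, 5.34, 2.65 and 1.68 FPKM, a 3.19-fold range with liver 2 highest, Afp was between 0.969 and 2.10 FPKM and H19 between 1.45 and 2.34 FPKM, while Dlk1 and Igf2 were at or below 0.0812 and 0.205 FPKM.

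The expressed gene with the nearest profile was sought among 43 other factors and coregulators and is given for 7 of the 8 factors, all but Cebpa, with the root mean square difference of deviations over the 4 livers. Foxa1 and Foxa2 were nearest to each other (0.11 on the log2 scale) and Foxa3 was nearest to Foxa2 (0.13). Hnf4a was nearest to Nfix (0.08), Prox1 to Ncoa2 (0.07), Nr5a2 to Ncoa1 (0.02) and Onecut2 to Nr2f2 (0.04). With 4 livers such nearness is common. Between 6 expressed genes, for Foxa3, and 212, for Onecut2, were at least as near as the gene named.

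Genes that textbooks give as targets of these factors were then examined, as a description. All 17 genes of the HNF4A list were expressed, with a median SD of 0.21, and 4 of them ranged at least 1.5-fold (23.5%, where 28.4% of all expressed genes did), G6pc, Cyp7a1 and Apoa4 included. Apob (290.3 to 356 FPKM), Mttp (82.1 to 91.2 FPKM) and F10 (144 to 163 FPKM) were among the steady ones, although Hnf4a ranged 1.66-fold. G6pc, the last enzyme of glucose release, was at 131, 134, 242 and 149 FPKM in livers 1 to 4, highest in liver 3. The list as a whole was not: its median deviation was -0.05, -0.03, -0.08 and 0.07 in livers 1 to 4.

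The FOXA list had 7 expressed genes of 8, Alb being listed at 0, and 4 of the 7 ranged at least 1.5-fold (57.1%, against 28.4% of all expressed genes). Igfbp1, an insulin-repressed FOXA target, was at 59.3, 104, 19.6 and 20.1 FPKM in livers 1 to 4, lower in livers 3 and 4. Tat, tyrosine aminotransferase, was at 780.2, 522, 505 and 335 FPKM, highest in liver 1. Ttr, Afp and Apob, 3 of the 7, were highest in liver 4, as were 33.3% of all expressed genes. G6pc, 1 of the 7, was highest in liver 3, as were 26.8% of all expressed genes. The median deviation of the list was 0.18, -0.03, -0.14 and -0.06 in livers 1 to 4. In the C/EBPα list, with 6 expressed genes of 7 and 4 of them ranging at least 1.5-fold (66.7%, against 28.4%), Hamp, which encodes the iron hormone hepcidin, was at 1258, 1276, 3213 and 1869.5 FPKM, highest in liver 3 as Cebpa was. Cps1, the entry enzyme of the urea cycle, was likewise highest in liver 3, at 748 FPKM against 449.9 to 617 FPKM. G6pc, also on this list, peaked there too, so that 3 of the 6 expressed genes were highest in liver 3, as were 26.8% of all expressed genes. The other 3 were not: Pck1, the entry enzyme of gluconeogenesis, was lowest in liver 3, at 767 FPKM against 873 to 1135 FPKM, Gys2, the liver glycogen synthase, was highest in liver 4, and Tat was highest in liver 1. The median deviation of the list was -0.0037, -0.25, 0.17 and 0.01 in livers 1 to 4. Hamp lies within the span of a lincRNA, Gm44662, on the opposite strand.

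All 9 genes of the NR5A2 list were expressed, and 2 of them, Nr0b2 and Cyp7a1, ranged at least 1.5-fold (22.2%, against 28.4%). Cyp7a1, the rate-limiting enzyme of bile acid synthesis, was at 46.0, 62.0, 38.8 and 66.6 FPKM in livers 1 to 4, and Cyp8b1, which sets the share of 12α-hydroxylated bile acids, at 291, 199, 236 and 219 FPKM. Cyp7a1 was lowest in liver 3, where Prox1, a corepressor at this gene, was highest, and highest in liver 4, whereas Prox1 was lowest in liver 2. The Onecut list had 5 genes, all expressed, and 3 of them ranged at least 1.5-fold (60.0%, against 28.4%), Foxa2 and Hnf4a included. Its Pfkfb1, a liver phosphofructo-2-kinase, was at 43.0, 39.6, 38.5 and 42.3 FPKM, within 1.12-fold, across the 19.03-fold range of Onecut1. Ttr, which is listed as a target of FOXA, HNF4A and Onecut factors, was at 6025, 4627, 4452 and 6472 FPKM. It was lowest in liver 3, where Hnf4a, Foxa3, Cebpa and Onecut1 each had their highest value. As deposited, it was highest in liver 4, where Foxa1, Foxa2 and the summed Foxa level were highest. With the libraries scaled to the same sum, Foxa2 was highest in liver 3, with a deviation of 0.30 against 0.27 in liver 4.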

How the data were processed

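RNA-seq of liver from 4 mice of a single group was analysed from the deposited table. Per the submitters' processing notes, which give no role or order, FastQC 0.10.1, Trim Galore 0.6.3, cutadapt, STAR 2.7.6a, Cufflinks 2.2.1 and the build mm10 were used. The deposited values carry no unit and were taken as FPKM, because they are not whole, sum to between 516816 and 570681 per liver, and have identifiers of the Cufflinks form; annotation and strand setting are not given in the sources used here. Columns were matched through the sample descriptions (0 without a sample). Deposited starts were raised by 1. The 8 genes and the 17 companion lists (named genes: all list members and the nearest profile of each factor) were chosen with earlier results of these data known. Spread was computed on log2(FPKM + 1). Depth came from the value of a fragment, taken as the median, within 25 to 75, of FPKM times the length minus 200 bases in GENCODE vM21 genes with a single transcript over 800 bases, so it is approximate. Promoter windows came from RefSeq (GRCm38.p6). Some genes and a motif are not reported here. There was no second group, so no test between groups was made. Neighbouring factors in the order of levels were compared by an exact sign-flip permutation test over livers, and a liver apart from the others by Dixon's ratio. The SD, gap ratio and permutation code was tested on simulated data. Python 3.11.15, numpy 2.4.6 and pandas 2.3.3 were used. Alternatives were other pseudocounts, scalings, minimum levels, leaving out each liver, and a GC adjustment. Each level rests on 4 livers, and the spread includes whatever extraction and library preparation added.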

Additional observations from a re-analysis of the deposited data

Results flagged for a closer look

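Among 99 expressed genes of the factor, target and marker lists, 4 had a liver apart from the other 3 by Dixon's ratio of gap to range on log2(FPKM + 1), past its 95% critical value for 4 samples. This is 4.04% of the genes examined, and chance gives about 1 in 20. None of the 8 hepatocyte factors was among them. Hhex was higher in liver 4 (ratio 0.873), at 84.7 FPKM against 29.02 to 33.3 FPKM. Apoa1 was higher in liver 4 (0.870), at 15343 FPKM against 11922 to 12320 FPKM. H19 was lower in liver 4 (0.865), at 1.45 FPKM against 2.2003 to 2.34 FPKM. This low value corresponds to about 57 fragments, with a counting error near 13.2% that Dixon's ratio does not take into account. Sox9, a bile duct factor, was lower in liver 4 (0.841), at 3.37 FPKM against 4.88 to 5.22 FPKM.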

How the results depend on the processing

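No paired analysis was possible because the 4 livers form a single group. The 48 mean levels recomputed, the 12 Foxa shares and the 4 orders stayed within an SD or within 1.5 times of the reported value, though 1 or 2 of the 7 neighbouring pairs changed places without liver 1, 2 or 4 (Foxa2 with Foxa3, and Nr5a2 with Prox1 without liver 2 or 4). Leaving out 1 of 4 livers moves a mean by less than its SD whatever the values. For the levels and shares without a liver this outcome was therefore fixed in advance. The spread depended on single livers. Without each liver in turn the median SD of the 8 factors was between 0.17 (without liver 3) and 0.36, and 3 (without liver 3) to 5 of them ranged at least 1.5-fold. The SD of Hnf4a was between 0.16 (without liver 3) and 0.38, that of Cebpa between 0.17 (without liver 3) and 0.56, that of Foxa1 between 0.18 (without liver 4) and 0.41, and that of Onecut2 between 0.037 (without liver 3) and 0.096. The SD of Nr5a2 was 0.063 with the libraries scaled to the same sum, and that of Onecut2 was 0.050 with a pseudocount of 5 and 0.026 after the GC adjustment, which was added after seeing the data, as were the count of factors of wide range without each liver and the marker median without Serpina1b. Of 72 recomputed SDs, 65 stayed within 1.5 times. Among all genes with a mean above 0, the spread of Nr5a2 was at percentile 33.1 and that of Onecut2 at 22.7; the cause was not tested, beyond the low genes that this wider set holds. Depth limited low values most. That of Onecut1 in liver 1 corresponds to about 94 fragments. The lowest values of some list genes rest on fewer, such as S100a8, Snai1 and Afp with about 19, 22 and 35.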
